A study of Mus musculus with 9 samples.

Results

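The cytosolic ribosomal protein genes, which encode the protein part of the ribosomes in the cytoplasm, were followed in mouse liver. They were chosen by name, as the genes called Rpl or Rps followed by a number (with at most 1 of the letters a, x, l or y after it) together with Rpsa, Rplp0, Rplp1 and Rplp2, and by a minimum of 10 counts summed over the 9 libraries. Of 55401 genes in the table, 83 carry such a name and 80 reached the minimum, 48 of the large subunit and 32 of the small subunit. The rule uses names and summed counts, not differences between groups. Of the 80, 78 passed the filter on low counts (46 large, 32 small), and the other 2, Rpl24 and Rpl6l, held 22 counts each and were not tested. Rpl24 is overlapped by Gm28037 on the same strand. The sources used here do not say how reads shared by overlapping genes were counted, so no level of Rpl24 is read from its count. Just outside the minimum were Rpl3l with 9 counts, all of them in STAM + Atglistatin replicate 6, Rpl39l with 4 and Rpl10l with 0. The name rule does not reach every ribosomal protein gene: among others, Rps3a1, Fau, Rack1 and the variant copies Rpl22l1, Rpl36al and Rpl7l1 are not members.

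Polyadenylated RNA of the liver (left lobe) was sequenced from the 3' end of the transcripts in 9 male mice, 3 mice in each of 3 groups. STAM mice are a model of fatty liver disease in diabetes. On day 2 of life they were given 200 µg of streptozotocin, a toxin of the insulin-producing beta cells, under the skin, and from an age of 4 weeks they were kept on a high-fat diet, which lasted another 4 weeks. STAM + Atglistatin mice had the same injection and diet, and their food also held Atglistatin, which inhibits the lipase ATGL (adipose triglyceride lipase). Chow mice had neither streptozotocin nor Atglistatin. Streptozotocin and the high-fat diet always came together, so their effects cannot be told apart, and the strain is not named in the labels.

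Each ribosome is built of ribosomal RNA and of 1 copy of most of these proteins, so cells make the set in nearly equal amounts. The messages begin with a cytosine followed by a run of pyrimidines, the 5' terminal oligopyrimidine or TOP motif, through which the mTORC1 kinase controls how much of each message is translated. Liver is a large protein-secreting organ with many ribosomes. Several members have roles outside the ribosome: Rpl5 and Rpl11 bind Mdm2 when ribosome assembly is disturbed, and Rps27l is a target of the transcription factor p53.

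The start sites of 8 members described below, picked with their values known, are shown here to let the TOP motif be seen. Each window runs from 15 bases before the annotated start to 15 from it, 5' to 3' on the strand of the gene (RefSeq, GRCm38.p6), with the longest run of C and T in capitals. The first pair are Rps27 and its close copy Rps27l, at chr3:90213634-90213663 on the minus strand and chr9:66946071-66946100 on the plus strand. The others are Rpl13a (chr7:45128731-45128760, minus), Rps15 (chr10:80292416-80292445, plus), Rpl41 (chr10:128549154-128549183, minus), Rplp2 (chr7:141447636-141447665, plus), Rpl28 (chr7:4792950-4792979, plus) and Rps6 (chr4:86857353-86857382, minus).
Rps27: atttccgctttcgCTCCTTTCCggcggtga
Rps27l: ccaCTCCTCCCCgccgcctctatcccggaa
Rpl13a: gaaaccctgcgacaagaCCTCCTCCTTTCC
Rps15: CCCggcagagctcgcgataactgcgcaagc
Rpl41: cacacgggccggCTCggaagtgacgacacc
Rplp2: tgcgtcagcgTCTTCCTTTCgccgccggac
Rpl28: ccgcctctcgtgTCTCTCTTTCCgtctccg
Rps6: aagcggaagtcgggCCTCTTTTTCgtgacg
The run was 9 bases long in both Rps27 and Rps27l, but it covered the annotated start only in Rps27. In Rps15 and Rpl41 the longest run of the window was 3 bases and did not cover the annotated start. In Rpl13a it was 13, but it began after the annotated start and reached the edge of the window, where it was cut. An annotated start can lie some bases away from the one used in liver, which these data do not show.

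Libraries held 7380365 to 9886129 counts, and entries for ribosomal RNA, 0.260 to 0.529% of counts, were left out of the tests. The liver identity of the samples was checked on a list of 10 hepatocyte gene names. Of these, 9 were among the gene names of the data, all with counts, and the other name was not found there. Their summed level was 92610 to 104100 CPM (the usual depth-scaled count, here on TMM-scaled library sizes) in chow, 49830 to 57550 in STAM and 72370 to 73000 in STAM + Atglistatin, so the groups did not overlap. The single genes went both ways: in STAM + Atglistatin against STAM 5 of the 9 were positive and 4 negative, with a median log2 fold change of 0.035 (1 higher and 1 lower in edgeR), and against chow the median was -0.42 in STAM and -0.48 with Atglistatin. Mitochondrially encoded transcripts took 7.32 to 8.78% of counts in chow, 11.03 to 11.6% in STAM and 8.64 to 9.73% in STAM + Atglistatin. Among the chow libraries, replicate 7 stood apart in the sum of 12 proliferation genes (135 CPM, where replicates 8 and 9 had 48.9 and 61.1). It also did so in 8 stellate cell and fibroblast genes (844 CPM, against 475 and 512) and in its TMM factor (1.03, against 0.932 and 0.918). Summed macrophage genes overlapped between the groups, at 419 to 626 CPM over all libraries. The part of these differences in the results below was not tested, and in whole tissue fewer cells of a type and less RNA per cell cannot be told apart.

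The members as a family were a little lower in STAM liver than in chow liver, and 1 of them passed the test. Relative to the chow mean of each gene, the median member stood at -0.26, -0.19 and -0.14 on the log2 scale in STAM replicates 1, 2 and 3, and at -0.063, -0.12 and -0.046 in STAM + Atglistatin replicates 4, 5 and 6. In the chow libraries it was -0.0089, 0.0078 and -0.0072, and values near 0 are built in there, since these libraries make the reference. In STAM replicate 1, 75 of the 78 members lay below the chow mean, against 65 in replicate 2 and 60 in replicate 3. The STAM + Atglistatin libraries had 50, 55 and 48 members below it, and chow replicates 7, 8 and 9 had 42, 31 and 42. The STAM + Atglistatin libraries so fell between the other groups.

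**Figure D1:**
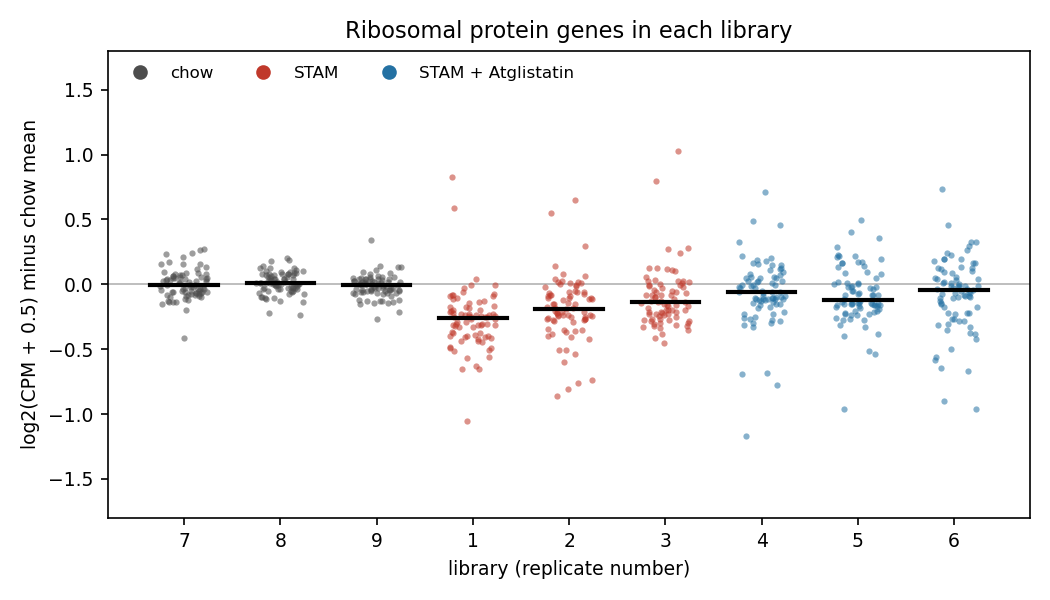
Each point is 1 tested ribosomal protein gene in 1 library, as its log2(CPM + 0.5) minus the mean of the 3 chow libraries (vertical axis), and the bar is the median of the 78 genes. Libraries are named by replicate number on the horizontal axis. The medians of the 3 STAM libraries lie between -0.26 and -0.14, below those of all other libraries.

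The share of all counts taken by the members shows how this depends on the scaling. It was 2.56, 2.34 and 2.26% in chow, 2.17, 2.28 and 2.21% in STAM, and 2.44, 2.42 and 2.44% with Atglistatin. On these raw totals chow and STAM overlapped. On TMM-scaled totals the share was 2.47 to 2.51% in chow, 2.05 to 2.24% in STAM and 2.37 to 2.42% with Atglistatin, and no group overlapped another. Over counts that were not mitochondrial, a denominator chosen after the values were seen, the range was 2.48 to 2.78% in chow and 2.44 to 2.56% in STAM, which overlapped.

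The first comparison, STAM against chow, set the liver of the disease model beside that of control mice. In edgeR (quasi-likelihood test, p-values adjusted by Benjamini-Hochberg over all 12660 tested genes), 0 of 78 members were higher and 1 was lower, Rps27, where 3.94% of all tested genes passed (1.95% higher, 1.99% lower). At an unadjusted p under 0.05, 1 member was higher and 22 were lower, 1.28% and 28.2% of them, against 7.24% and 7.31% of all tested genes. DESeq2 called 0 higher and 3 lower, and limma-voom 1 higher and 5 lower. Over all genes DESeq2 called 639 and limma-voom 729, where edgeR called 499. The log2 fold change was negative for 73 members and positive for 5, with a median of -0.21 and an interquartile range of 0.17. Over all tested genes 50.1% were negative, the median was -0.0014 and the interquartile range 0.49. All 3 STAM libraries lay below all 3 chow libraries for 36 members, 46.2% of them, against 10.2% of all tested genes. For 1 member, Rps4l, they lay above, against 10.5% of all tested genes.

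Without a further scaling of library totals the median of all tested genes moved by 0.087, and that of the members went from -0.21 to -0.13, with 64 of 78 negative. The distance between the members' median and that of all genes was -0.25 to -0.18 over 13 alternatives. Without chow replicate 7, 70 members were negative, and the median was -0.22. The standard error of a member's log2 fold change had a median of 0.12. The 95% interval lay within 1 log2 unit on either side of 0 for 73 of the 78.

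**Figure D2:**
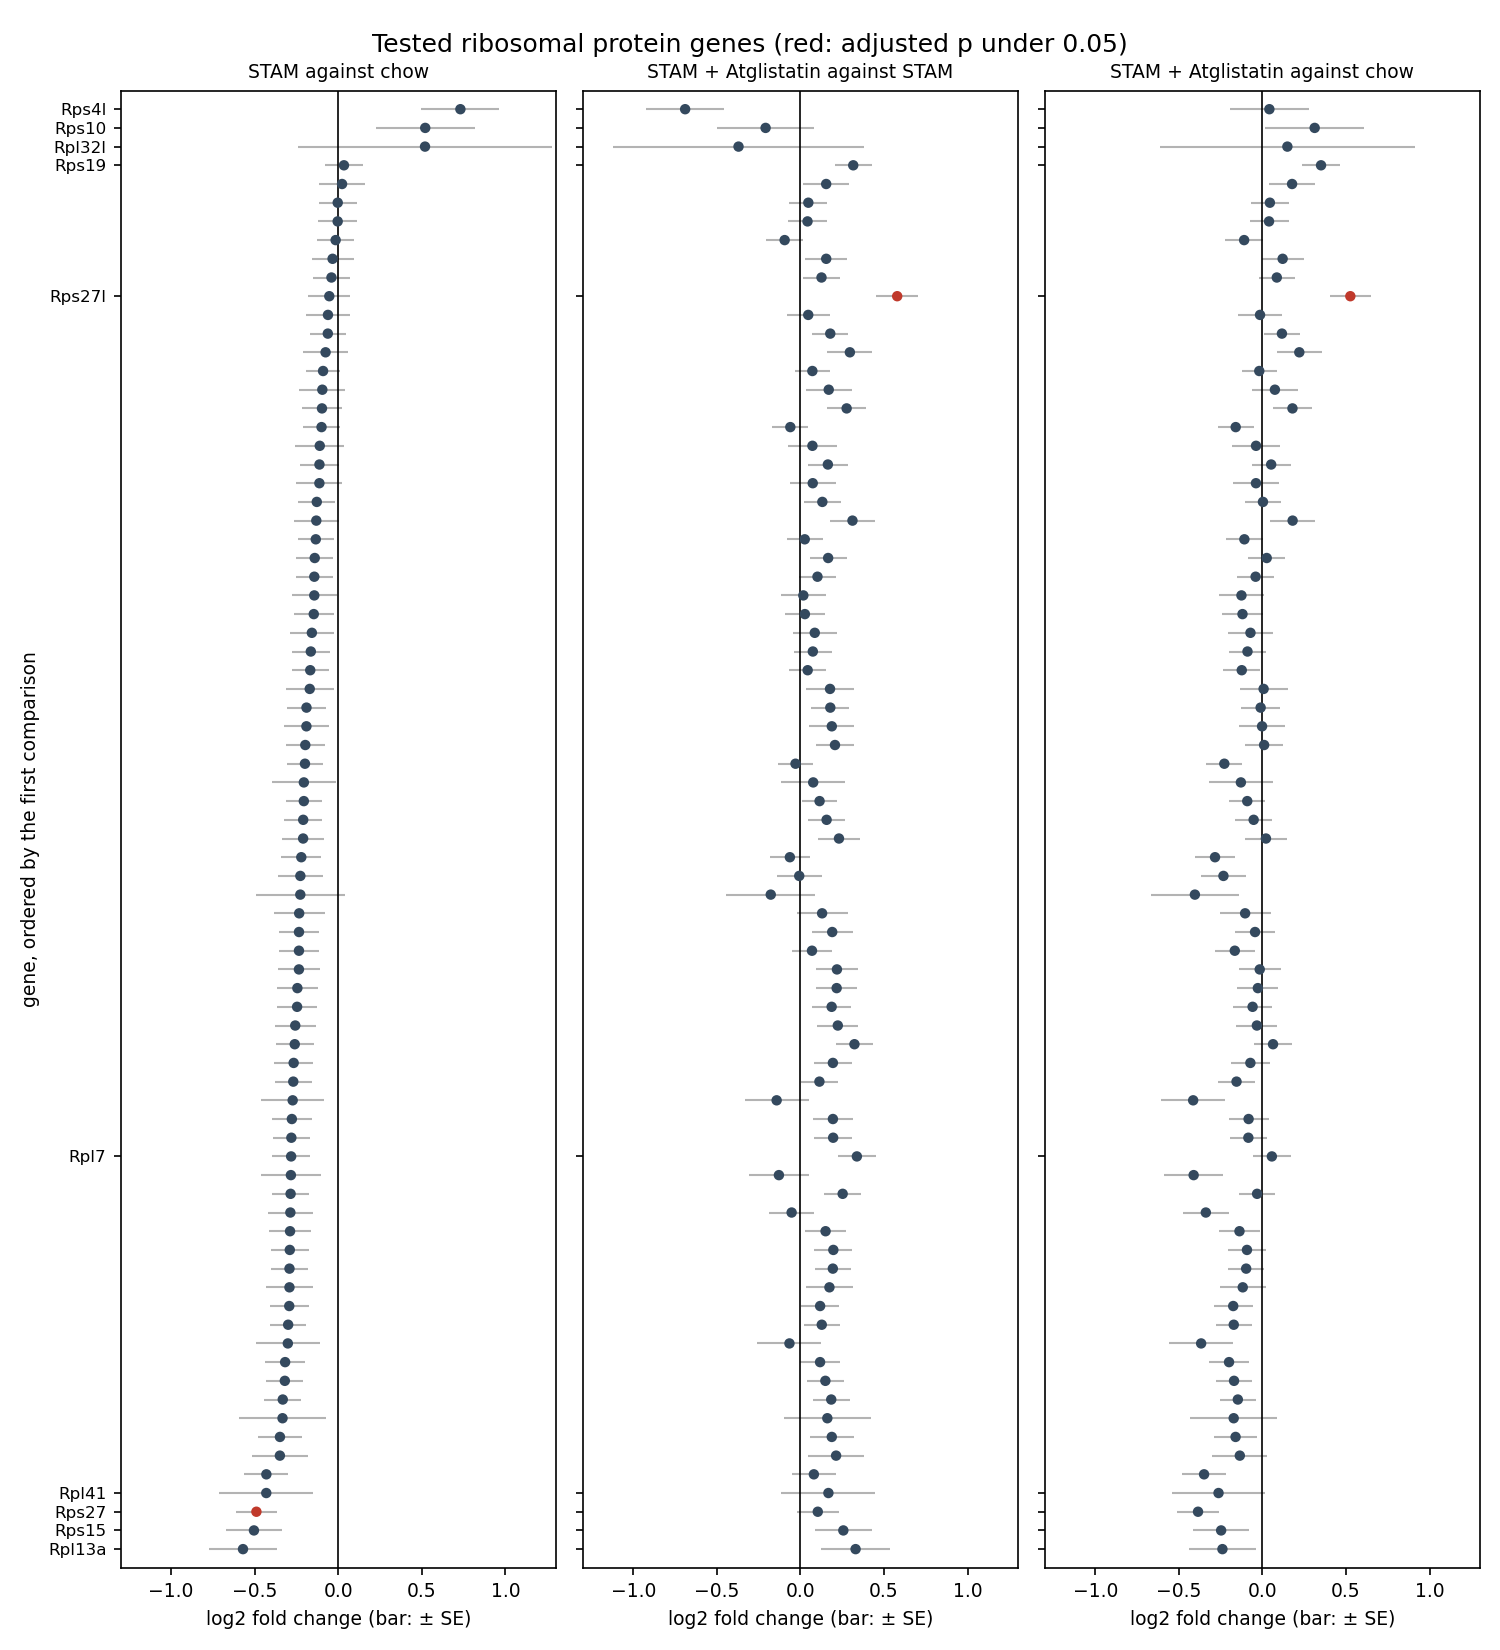
Log2 fold changes (horizontal axes, points) with their standard errors (bars) of the 78 tested ribosomal protein genes in the 3 comparisons, 1 gene per row, in the order of STAM against chow, with names for 10 genes described in the text. Red marks an adjusted p under 0.05: Rps27 in the left panel and Rps27l in the other two. Most genes lie left of 0 in the left panel and right of it in the middle one, and the left and middle panels share the STAM libraries.

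Rps27, a zinc-finger protein of the small subunit (chromosome 3, 90212522 to 90213651, minus strand), stood at 304, 361 and 330 CPM in chow, 225, 219 and 265 in STAM, and 274, 228 and 260 with Atglistatin. Every STAM library was below every chow library, and so was every Atglistatin library. STAM against chow gave a log2 fold change of -0.49 ± 0.12 (SE, edgeR adjusted p = 0.0311), a 1.405-fold drop of the mean. The call was lost with library totals (edgeR adjusted p = 0.0555) and without chow replicate 8 (0.154), chow replicate 9 (0.0903), STAM replicate 1 (0.166) or STAM replicate 2 (0.172). It held in 8 of 13 alternatives, with adjusted p-values of 0.00313 to 0.172 over all of them.

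Rpl13a and Rps15 had more negative values than Rps27 and did not pass. Rpl13a, a large-subunit protein also known from the silencing of inflammatory messages, had the most negative value, -0.57 ± 0.21 (edgeR adjusted p = 0.165). Its level was 45.5, 39.8 and 37.5 CPM in chow and 26.3, 24.3 and 32.3 in STAM, with no overlap. Rps15, which sits near the decoding site of the small subunit, was at 241, 275 and 258 CPM in chow and 164, 152 and 230 in STAM (-0.50 ± 0.17, edgeR adjusted p = 0.125). It passed in 3 of 13 alternatives: with no filter on low counts (adjusted p = 0.0108), in limma-voom (0.0156) and without STAM replicate 3 (0.0336). Rps16 had a value of -0.43 ± 0.13, which passed in DESeq2 and in limma-voom and not in edgeR (adjusted p = 0.0865).

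Among the 5 members with a positive value, Rps4l, a copy of Rps4x, was highest. It stood at 16.6, 12.8 and 12.4 CPM in chow, 24.8, 20.4 and 24.4 in STAM, and 11.7, 19.7 and 11.8 with Atglistatin, so that STAM lay above both other groups. The log2 fold change was 0.73 ± 0.23 for STAM against chow (edgeR adjusted p = 0.104) and -0.69 ± 0.23 for STAM + Atglistatin against STAM (0.210). The first passed in limma-voom (adjusted p = 0.0375) and in none of the other 12 alternatives. Its parent gene Rps4x, at 102 to 123 CPM in chow, 89.4 to 113 in STAM and 114 to 137 with Atglistatin, did not share this order. Rps4l overlaps Tmtc1, which runs on the other strand, and the sources used here do not say whether strand was used in counting. Rps10 (0.52 ± 0.30) and Rpl32l (0.52 ± 0.76), the next by size, are low in these libraries. Rps10 held 5.03 to 11.1 CPM and Rpl32l 0.414 to 3.12. On the same strand Rps10 is overlapped by RPS10-NUDT3 and Rpl32l by Map7, and the part of shared reads in their low counts was not tested.

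The second comparison, STAM + Atglistatin against STAM, was between mice that, by the labels, differed in the lipase inhibitor. In edgeR 1 of 78 members was higher, Rps27l, and 0 were lower, where 1.79% of all tested genes passed (1.04% higher, 0.742% lower). At an unadjusted p under 0.05, 8 members were higher and 1 lower, 10.3% and 1.28%, against 5.09% and 5.06% of all tested genes. DESeq2 and limma-voom each called 1 member higher and 0 lower. Over all genes DESeq2 called 287 and limma-voom 293, where edgeR called 226. The log2 fold change was positive for 65 members and negative for 13, with a median of 0.15, against -0.00071 over all tested genes. All 3 Atglistatin libraries lay above all 3 STAM libraries for 20 members, 25.6% of them, against 8.60% of all tested genes, and below them for 1 member, against 8.44%. The median stayed between 0.097 and 0.16 over 13 alternatives, and was lowest without STAM replicate 1, where 59 of 78 members were positive.

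Rps27l (chromosome 9, 66946086 to 66949516, plus strand) stood at 282, 326 and 318 CPM in chow, 302, 276 and 313 in STAM, and 424, 395 and 513 with Atglistatin. All 3 Atglistatin libraries were above all 6 others, while chow and STAM overlapped. Its log2 fold change was 0.58 ± 0.12 against STAM (95% interval 0.32 to 0.84, edgeR adjusted p = 0.0183), a 1.49-fold rise of the mean, and 0.53 ± 0.12 against chow (edgeR adjusted p = 0.0202). STAM against chow gave -0.054 ± 0.12 (adjusted p = 0.916). Against STAM the call was lost without STAM + Atglistatin replicate 4 (edgeR adjusted p = 0.0508) or 6 (0.102) and without STAM replicate 1 (0.0914) or 2 (0.141), in a range from 0.000452 over 13 alternatives.

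Rps27l and Rps27 encode nearly the same protein, and either can be built into the small subunit. The ratio of their CPM, chosen after the values were seen and so given with no test, was 0.926, 0.902 and 0.963 in chow, 1.345, 1.26 and 1.18 in STAM, and 1.55, 1.73 and 1.98 with Atglistatin. The 3 groups did not overlap and stood in this order, the first step with lower Rps27 and the second with higher Rps27l. The sum of both genes was 586 to 687 CPM in chow, 495 to 578 in STAM and 623 to 773 with Atglistatin. The sources used here do not say how reads that fit both genes were counted.

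**Figure D3:**
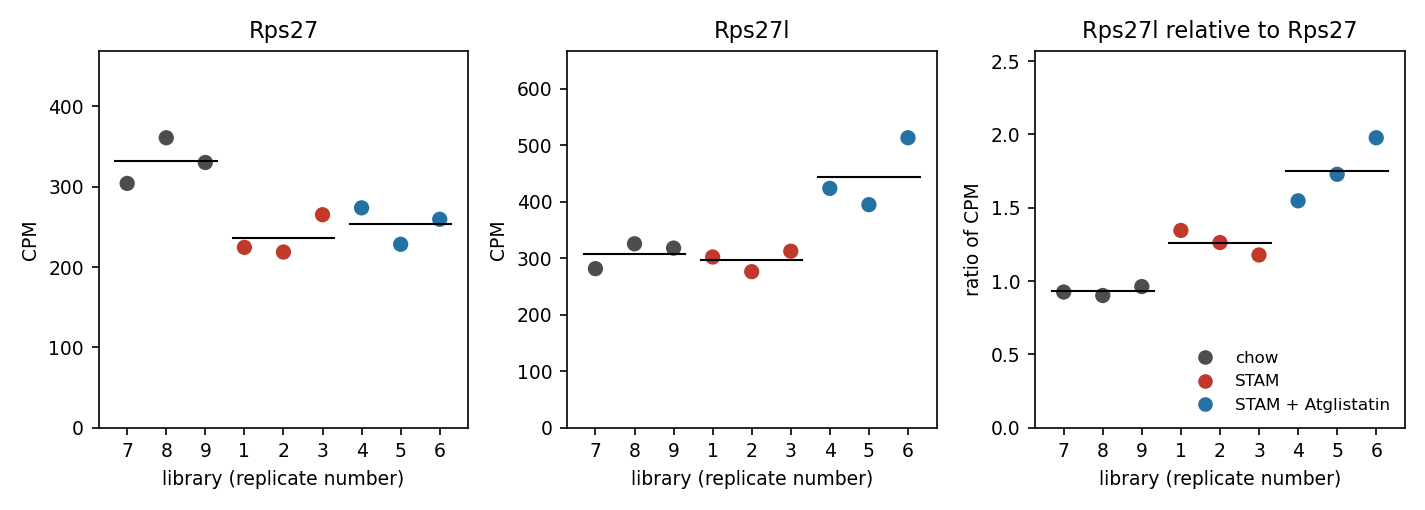
CPM of Rps27 (left) and Rps27l (middle) and the ratio of the second to the first (right) in each of the 9 libraries, named by replicate number, with the group mean as a line. Rps27 is lower in the STAM libraries and Rps27l higher in the Atglistatin libraries, and the ratio runs from 0.902 to 1.98 with no overlap between groups.

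Other genes known as p53 targets, Cdkn1a, Ccng1 and Mdm2, were looked up after Rps27l had been seen, and further targets are not given here. Cdkn1a, the cell cycle inhibitor p21, was at 20.4 to 29.99 CPM in STAM and 140 to 169 with Atglistatin (2.67 ± 0.56, edgeR adjusted p = 0.0150). In chow it was at 2.89 and 6.35 CPM in replicates 8 and 9 and at 50.3 in replicate 7. Ccng1, cyclin G1, was at 22.1 to 25.8 CPM in chow, 40.7 to 44.3 in STAM and 79.1 to 111 with Atglistatin, and rose in STAM against chow (0.84 ± 0.15, edgeR adjusted p = 0.00269) and again with Atglistatin (1.18 ± 0.15, 0.000129). Mdm2, which marks p53 for degradation, had a value of 0.85 ± 0.21 against STAM that did not pass (adjusted p = 0.0519). In STAM + Atglistatin against chow Cdkn1a (2.92 ± 0.57, edgeR adjusted p = 0.00493), Ccng1 (2.02 ± 0.15, 2.81e-07) and Mdm2 (1.24 ± 0.22, 0.00208) passed. A link between these genes and Rps27l was not tested.

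The members with the next highest values in this comparison did not pass. Rpl7, a large-subunit protein, was at 336, 398 and 389 CPM in chow, 299, 323 and 301 in STAM, and 371, 386 and 410 with Atglistatin (0.34 ± 0.11, edgeR adjusted p = 0.212). Rpl13a had a value of 0.33 ± 0.20, with Atglistatin libraries at 23.6 to 44.6 CPM that overlapped STAM. Rps19, the gene most often mutated in Diamond-Blackfan anaemia, was at 315, 292 and 266 CPM in chow, 290, 292 and 312 in STAM, and 364, 385 and 364 with Atglistatin, above all other libraries. Its values were 0.32 ± 0.11 against STAM (edgeR adjusted p = 0.252) and 0.35 ± 0.11 against chow (0.104). Against chow it passed in 4 of 13 alternatives, namely library totals (adjusted p = 0.0438), DESeq2 (0.0254), limma-voom (0.0341) and without chow replicate 7 (0.0404).

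The third comparison, STAM + Atglistatin against chow, set the treated model beside the healthy liver and shares its samples with the other two. In edgeR 1 of 78 members was higher, Rps27l, and 0 were lower, where 4.08% of all tested genes passed (2.1% higher, 1.97% lower). At an unadjusted p under 0.05, 2 were higher and 7 lower, 2.56% and 8.97%, against 7.47% and 7.36% of all tested genes. DESeq2 and limma-voom each called 2 members higher and 1 lower. Over all genes DESeq2 called 648 and limma-voom 581, where edgeR called 516. The log2 fold change was negative for 55 members and positive for 23, with a median of -0.078, against -0.0041 over all tested genes. All 3 Atglistatin libraries lay below all 3 chow libraries for 17 members, 21.8% of them, against 9.04% of all tested genes. They lay above for 4 members, 5.13%, against 9.57% of all tested genes. With library totals the median was 0.0055, and 39 members had each sign, while the median of all genes shifted by 0.082. The Rps27l call was lost when only the 2 groups were fitted (edgeR adjusted p = 0.0509), and without STAM + Atglistatin replicate 4 (0.0504) or 6 (0.101) or chow replicate 9 (0.0619). Its adjusted p was 0.00132 to 0.101 over 13 alternatives. Rps27 had a value of -0.39 ± 0.12 (edgeR adjusted p = 0.107), which passed in DESeq2 (0.0481), in limma-voom (0.0388) and without chow replicate 7 (0.0413), in a range of 0.0388 to 0.351 over 13 alternatives.

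By subunit, the large-subunit members had median log2 fold changes of -0.24, 0.14 and -0.10 in STAM against chow, STAM + Atglistatin against STAM and STAM + Atglistatin against chow, and the small-subunit members -0.18, 0.17 and -0.030. Both calls, Rps27 and Rps27l, were of the small subunit. The 4 genes of the stalk, the arm of the large subunit that recruits elongation factors, had 0 calls in the 3 comparisons by edgeR, DESeq2 and limma-voom (1 lower at an unadjusted p under 0.05 in STAM against chow, 0 in the others). Rplp1 was the member with the most counts, at 1498, 1394 and 1368 CPM in chow, 1266, 1408 and 1299 in STAM, and 1310, 1339 and 1163 with Atglistatin. STAM overlapped both other groups, and the Atglistatin libraries lay below the chow ones. Rplp0, the base of the stalk, was at 249 to 277 CPM in chow, 199 to 249 in STAM and 223 to 240 with Atglistatin.

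Rpl5 and Rpl11, which enter the large subunit together with an RNA of their own, did not pass in any of the 3 comparisons. Rpl11 was at 560, 605 and 606 CPM in chow, 554, 567 and 600 in STAM, and 620, 583 and 676 with Atglistatin, with a log2 fold change of -0.041 for STAM against chow (95% interval -0.27 to 0.19) and 0.13 for STAM + Atglistatin against STAM (-0.10 to 0.36). Rpl5 was at 85.5 to 87.7 CPM in chow, 76.3 to 107 in STAM and 93.0 to 103 with Atglistatin. The Atglistatin libraries lay above the chow ones (0.18 ± 0.14, edgeR adjusted p = 0.625) and overlapped STAM (0.15 ± 0.14, 0.811). The 8 members around the exit of the peptide tunnel were all negative in STAM against chow, as were 44 of the 46 tested large-subunit members. At an unadjusted p under 0.05, 0 of the 8 were higher and 4 lower, against 0 and 15 of the 46. Of all tested genes 7.31% were lower at that cut. The 8 tunnel members had a median of -0.28, against -0.24 for the 46. They had 0 calls in edgeR, 0 in DESeq2 and 1 in limma-voom (Rpl23a, lower). One of them, Rpl39, was at 226, 219 and 209 CPM in chow, 183, 185 and 171 in STAM, and 203, 194 and 220 with Atglistatin (-0.28 ± 0.11, edgeR adjusted p = 0.230). STAM lay below both other groups there.

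Other members with separate roles did not pass either. Rpsa, also known as the laminin receptor, was at 238 to 264 CPM in chow, 238 to 252 in STAM and 219 to 247 with Atglistatin. Rps6, the substrate of S6 kinase downstream of mTORC1, was at 15.6 to 21.8 CPM in chow, 15.2 to 17.2 in STAM and 8.11 to 20.2 with Atglistatin. Rps27a, made as a fusion with ubiquitin, was at 89.0 to 111, 83.0 to 93.8 and 80.3 to 110 CPM in the 3 groups. Rpl3, at the peptidyl transferase centre, was at 178 to 220 CPM in chow, 157 to 164 in STAM and 157 to 193 with Atglistatin (-0.29 ± 0.12 for STAM against chow, edgeR adjusted p = 0.285). Rpl10, which joins the large subunit late in assembly, was at 117 to 133, 86.3 to 123 and 111 to 118 CPM. The groups overlapped for each of these genes except for chow and STAM in Rpl3. The tissue-restricted copies Rpl3l, Rpl39l and Rpl10l, known from muscle or testis, were at or near 0 counts as given above, and no fold is given for them.

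A variant copy outside the name rule passed the test. Rpl22l1, a copy of Rpl22, was at 81.9, 71.0 and 91.6 CPM in chow, 45.5, 52.9 and 47.9 in STAM, and 46.2, 61.0 and 46.7 with Atglistatin. It fell in STAM against chow by 0.74 ± 0.15 on the log2 scale (edgeR adjusted p = 0.00691) and was lower with Atglistatin than in chow (-0.67 ± 0.15, adjusted p = 0.0155). Rpl22 itself was at 310 to 335 CPM in chow, 263 to 269 in STAM and 294 to 323 with Atglistatin. Of the 6 tested ribosomal protein genes outside the rule, all had a negative value in STAM against chow, with a median of -0.24, and Rpl22l1 was the 1 that passed. Of the 78 members 73 were negative there, with a median of -0.21.

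**Figure D4:**
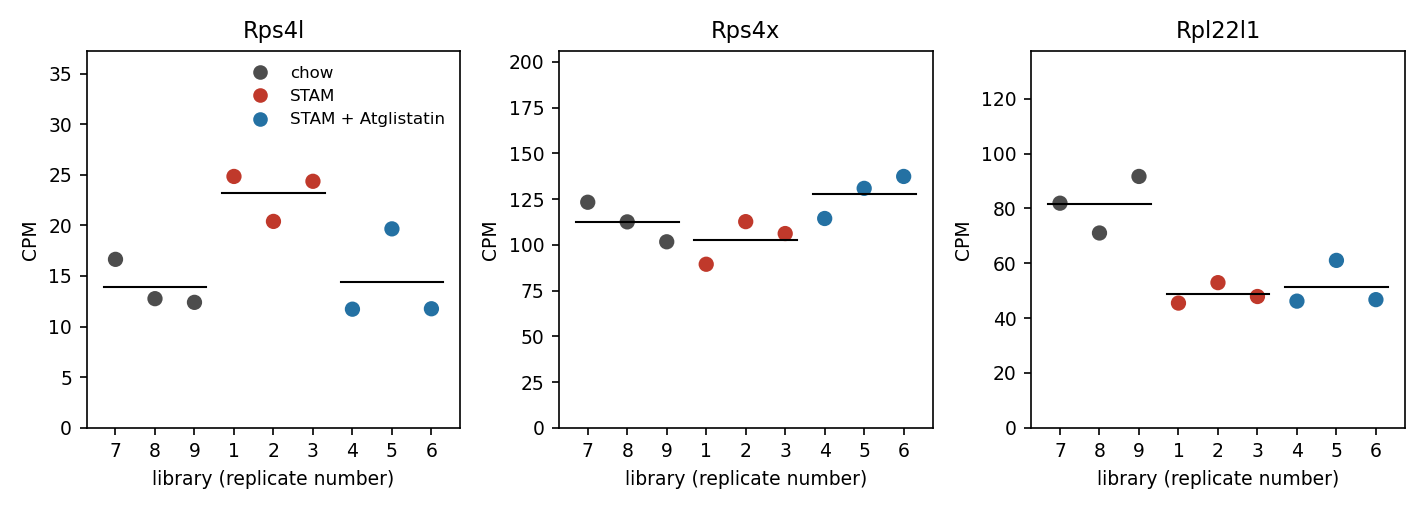
CPM of Rps4l, its parent gene Rps4x and Rpl22l1 in each of the 9 libraries, named by replicate number, with the group mean as a line. Rps4l is at 20.4 to 24.8 CPM in STAM and 11.7 to 19.7 in all other libraries, while Rpl22l1 is at 71.0 to 91.6 in chow and 45.5 to 61.0 in both STAM groups.

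Some members split the libraries inside a group rather than the groups, which was noticed after the values had been seen. Rpl41, the shortest of the ribosomal proteins, was at 214, 170 and 164 CPM in chow, but at 87.3 and 99.8 in STAM replicates 1 and 2 and at 220 in replicate 3. With Atglistatin it was at 182 and 181 CPM in replicates 4 and 5 and at 93.1 in replicate 6. Rpl29 had the same order, at 34.4 and 30.9 against 64.7 CPM within STAM and at 61.2 and 54.9 against 29.03 within STAM + Atglistatin. Rplp2 (209 and 221 against 306, then 291 and 307 against 176), Rps15 (164 and 152 against 230, then 257 and 230 against 164) and Rpl28 (109 and 108 against 145, then 143 and 173 against 104) did likewise. Rps29 shows the same order with smaller steps, from 650 and 719 to 775 CPM and from 882 and 871 to 701.

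**Figure D5:**
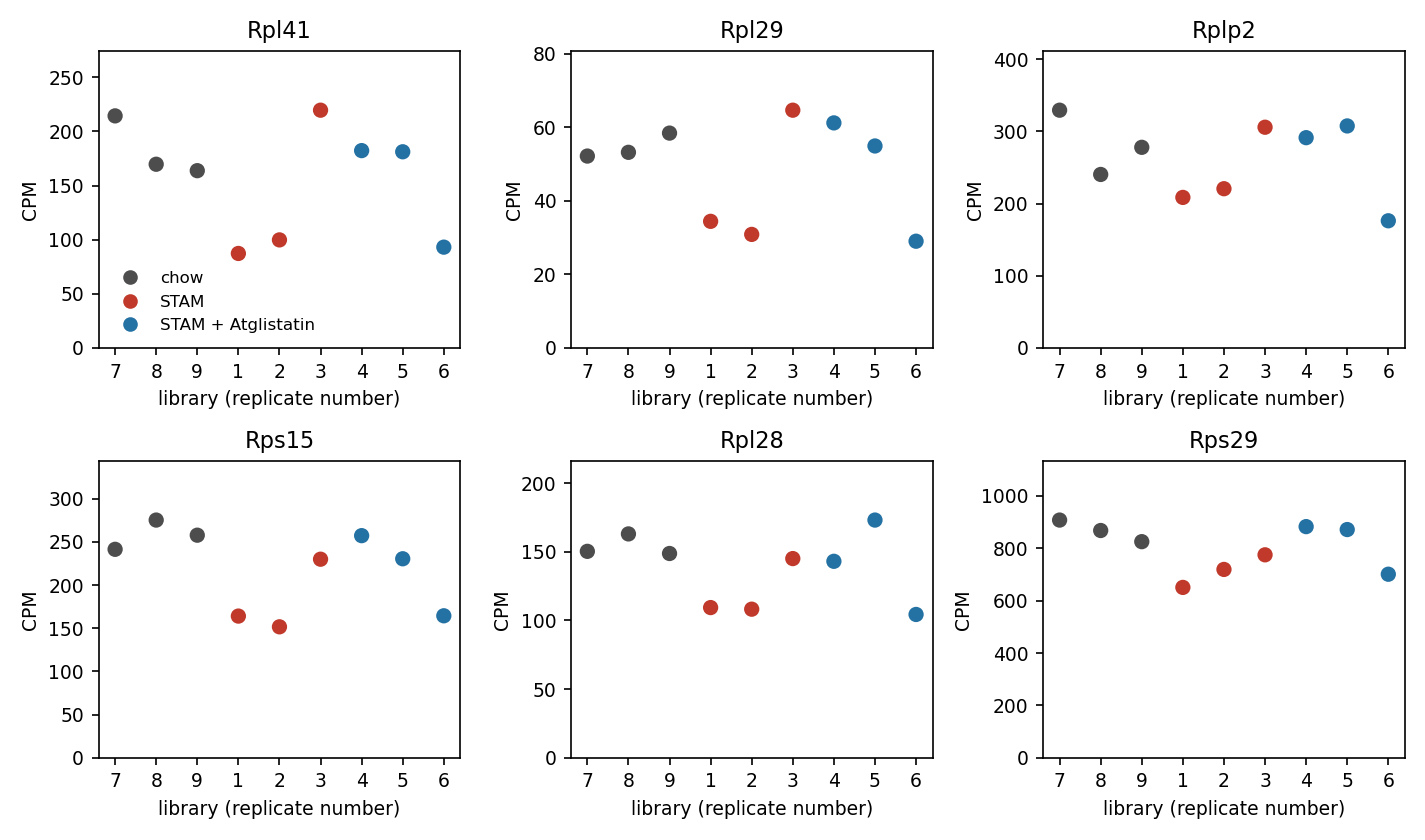
CPM of 6 ribosomal protein genes in each of the 9 libraries, named by replicate number. In these genes, chosen after their values were seen, STAM replicate 3 lies above STAM replicates 1 and 2, and STAM + Atglistatin replicate 6 lies below replicates 4 and 5, as for Rpl41 at 220 against 87.3 and 99.8 CPM and at 93.1 against 182 and 181.

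Across the 78 members, the log2 distance of STAM replicate 3 from the other STAM libraries and that of STAM + Atglistatin replicate 6 from the other Atglistatin libraries had a Pearson r of -0.49 and a Spearman rho of -0.34. The genes in which the split was noticed are among the 78, so these values are no independent test of it. Genes of 1 library share its depth and preparation, and these are values across genes, not replicates. Over the 2813 tested genes with a mean CPM at or above the 10th percentile of the members r was -0.20, and over all 12656 genes with a transcript model -0.049. The GC content of the last 200 bases of the transcript went with the same distances, with an r of 0.29 and -0.31 across members and 0.26 and -0.39 across the 2813 genes. These are 3 of 8 relations computed, each in 3 gene sets, and the part of GC content in the split was not tested. The split touches the comparisons: without STAM replicate 3, Rpl41 passed in STAM against chow (-0.97, edgeR adjusted p = 0.0360), while with it the value was -0.43 ± 0.28 (0.545, in a range of 0.0360 to 0.887 over 13 alternatives).

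The members lie on 19 chromosomes of the GENCODE M21 annotation of GRCm38, which holds all 80, and 29 of them carry snoRNA genes inside, 57 in all. Rpl4 holds 5 and Rpl13a holds 4. The members' transcripts are short, with a median of 768 bases against 2678.5 over all tested genes, and the GC content of their last 200 bases had a median of 44.75%, against 41% over all tested genes. A gene on the other strand overlaps 22 members, and a gene on the same strand 6. Members have many processed pseudogenes. 317 entries of the table are named as pseudogenes of a member, and these held 4273 counts, 0.228% of the counts of members and pseudogenes together. For Rps10 that share was 26.6%, for Rpl10a 17.6% and for Rps6 5.12%, so that reads of these 3 may be split with their copies, and 9 members were over 1%. Pseudogenes under other kinds of name were not counted, so these shares can be too low, also for other members.

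The levels of members ranged widely although the proteins are used in nearly equal number. Over the 9 libraries the median member was at 260 CPM, 63 of 80 members were at 100 CPM or more, and 4 were below 10. CPM here is not divided by transcript length, since the method reads 1 end of each transcript. Differences in level between genes also depend on how well the last bases of each gene can be placed, so that no order of levels is read from them.

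Promoter windows (250 bases before to 50 after the start, from RefSeq, GRCm38.p6) were found for 58 of the 80 members and were compared with those of all 27025 genes in the same table, taking the first listed start of each. CCGGAAG, CTCGCGAGA, AAGATGGC and TATAA were searched only in the 250 bases before the start. The motif CCGGAAG, of the kind bound by ETS factors, was present there on either strand for 29.3% of members and 7.05% of all. CTCGCGAGA on either strand was in 8.62% and 0.603%. CTTTCC on the gene's strand within the 30 bases around the start was in 13.8% and 1.39%, and an unbroken run of at least 5 pyrimidines over the start, which can overlap CTTTCC, in 32.8% and 9.95%. AAGATGGC on either strand was in 1.72% and 1.59%, and TATAA on the gene's strand in 17.2% and 16.7%. With every listed start counted, AAGATGGC was in 4.35% of members' starts and 1.56% of all. Bases from the start on were not searched for it, so these shares do not show whether it is common there. The 27025 genes were not limited to those tested here, so the shares do not set members apart from other genes expressed in liver. They describe letters in the windows and show no binding.

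Other genes that work with ribosomes were counted from lists. Of 75 tested mitochondrial ribosomal protein genes, which serve the separate ribosomes of mitochondria, 1 rose and 0 fell in STAM against chow, with a median of 0.046, while DESeq2 called 3 higher and limma-voom 2. The edgeR call was Mrpl45, from 46.8 ± 4.51 to 68.5 ± 7.48 CPM (SD, n = 3 each, edgeR adjusted p = 0.0377). In STAM + Atglistatin against chow the 1 that rose was Mrpl51 (0.44 ± 0.12, edgeR adjusted p = 0.0440). Of 38 translation initiation factors 0 passed in each comparison, with medians of -0.097, 0.10 and -0.045 and 1 higher and 7 lower at an unadjusted p under 0.05 in STAM against chow. There DESeq2 called 1 lower, Eif2s2, and limma-voom 3 lower, Eif2s2, Eif3e and Pabpc1. The 9 elongation and release factors, 19 other TOP messages, 8 TOP snoRNA host genes and 49 ribosome assembly factors had 0 calls in edgeR in all 3 comparisons as well. In STAM against chow 0 of each were higher at an unadjusted p under 0.05, and 2, 5, 1 and 4 were lower, with medians of -0.15, -0.18, -0.067 and -0.11. Over all tested genes 7.24% were higher and 7.31% lower at that cut in this comparison, and 3.94% passed in edgeR. DESeq2 and limma-voom called Eef1a1, an elongation factor with a TOP message, lower (144 to 234 CPM in chow, 105 to 140 in STAM), and limma-voom also Eif3e and Pabpc1, which are in the TOP list too. In STAM + Atglistatin against chow Pabpc1 was lower in both tools, Eef1a1 in limma-voom and the assembly factor gene Nop10 in DESeq2. Of 20 genes of mTORC1 and MYC control, 1 fell in STAM against chow, Eif4ebp2, a repressor of translation initiation that mTORC1 inactivates, from 169 ± 21.5 to 117 ± 12.9 CPM (SD, n = 3 each, edgeR adjusted p = 0.0373).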

How the data were processed

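Libraries for the 9 liver RNA samples were made with a QuantSeq 3' mRNA kit, per the labels' protocols. The submitters' processing notes name STAR and GRCm38. The sources used here do not state versions, the counting tool, the strand setting or what was done with reads that fit several places. The authors deposited raw read counts per gene. Groups came from the sample titles and the design text, since the treatment label of chow and STAM samples contradicts both. The labels give 1 sample per mouse number.

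The test was edgeR 4.0.16 in R 4.3.3 (TMM, filterByExpr, 1 quasi-likelihood fit to all 9 libraries, Benjamini-Hochberg adjustment over 12660 genes, adjusted p under 0.05). The common biological coefficient of variation was 0.236. CPM uses TMM-scaled totals, and log2(CPM + 0.5) was used for values per library. Depth, 7380365 to 9886129 counts per library, sets the precision of low members. The alternatives were DESeq2 size factors, library totals, DESeq2 1.42.0 as the tool, limma-voom (limma 3.58.1) with sample weights, all genes with 1 count or more, the 2 groups alone, pseudogene counts added to their parents, and leaving out each library. The members and lists were chosen with earlier results of these data known. Members named in full were those past the threshold (up to 6 a direction in the first 2 comparisons, or the 3 largest by fold change where fewer than 3 passed), and a fixed set chosen by role; from the lists, up to 3 genes past the threshold in each direction. Genes outside this rule are said to be chosen after their values were seen, and Rps16, Rps4x, Rpl22, Rpl28, Rpl29, Rps29, Eef1a1, Eif2s2, Eif3e, Nop10, Pabpc1 and Rpl23a were so too. The groups' own columns of summed counts and the authors' fold changes were not used. Some genes are not reported here by name.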

Additional observations from a re-analysis of the deposited data

How the results depend on the processing

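Counts of members past the threshold rest on few genes, and some moved with the processing. For members lower in STAM against chow (1 by edgeR, Rps27), the count was 0 with library totals, 2 with no low-count filter, 3 in DESeq2 and 5 in limma-voom, and 0 to 3 when single libraries were left out. Calls over all genes also moved there, from 499 to 552 with library totals, 743 with no low-count filter, 639 in DESeq2 and 729 in limma-voom. They were 462 with the 2 groups alone. When single libraries were left out they ran from 291, without STAM replicate 1, to 724, without chow replicate 7. Members higher in that comparison numbered 0, and 1 in limma-voom (Rps4l). For members higher in STAM + Atglistatin against STAM (1), the count was 1 in the 7 alternatives that kept all libraries of the groups compared and 0 to 1 without single libraries, and members lower there were 0 in all 13. For those higher in STAM + Atglistatin against chow (1), the count was 2 with library totals, DESeq2 and limma-voom (Rps27l and Rps19), 0 with the 2 groups alone, and 0 to 2 without single libraries. Members lower there (0) were 1 in DESeq2 and limma-voom, and 0 to 1 without single libraries.

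The median of the members in STAM against chow was -0.13 with library totals, against -0.21, and it reversed in STAM + Atglistatin against chow, to 0.0055. With library totals the values of Rpsa (0.069), Rpl11 (0.049) and Rps27l (0.038) in STAM against chow also turned positive. In limma-voom those that turned were Rpsa in STAM against chow (0.0041), and Rps27a (-0.014) and Rpl32l (-0.19) in STAM + Atglistatin against chow. Without single libraries the sign turned in STAM against chow for Rpsa (-0.046 to 0.029), Rps19 (-0.028 to 0.096), Rpl5 (-0.14 to 0.12) and Rpl32l (-0.053 to 0.76). It turned in STAM + Atglistatin against STAM for Rplp0 (-0.0042 to 0.16), Rplp2 (-0.069 to 0.29), Rps6 (-0.49 to 0.10), Rpl41 (-0.072 to 0.70) and Rpl32l (-0.96 to 0.20). In STAM + Atglistatin against chow it turned for Rpl32l (-0.43 to 0.58), Rps27a (-0.079 to 0.13), Rps4l (-0.25 to 0.19), Rplp2 (-0.27 to 0.083) and Rpl7 (-0.018 to 0.10). None of these values passed before or after, and the cause was not tested. No paired analysis was possible because the groups share no replicate numbers.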
